A study of Mus musculus with 6 samples.

Results

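The Fc gamma receptors and a set of complement genes were followed in whole aortas of Apoe-/- mice. The 10 genes, Fcgr1, Fcgr2b, Fcgr3, Fcgr4, C1qa, C1qb, C1qc, C3, C3ar1 and C5ar1, were taken by gene symbol from a table of 18749 gene rows, and all 10 had a row and passed the filter on low counts. One group was Apoe-/- recipients of Apoe-/-Sept2C111A bone marrow (Sept2C111A recipients, 3 libraries), and it was set against Apoe-/- recipients of Apoe-/- bone marrow (control recipients, 3 libraries). All mice lacked apolipoprotein E and had received angiotensin II for 28 days, so no group without the infusion or with intact Apoe was analysed here. The altered septin-2 was carried by cells of donor marrow, and cells of the vessel wall kept the recipient's own genotype. The labels give neither the age of the mice nor how far donor cells had replaced the recipients' own marrow. By its title the series concerns S-nitrosylated septin-2 of macrophages in aortic aneurysm, and the question here is how the genes by which such cells bind antibody and complement stood in the 2 groups.

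Library totals ran from 17082719 to 18736010 expected counts in Sept2C111A recipients and from 18472362 to 20494928 in control recipients. Levels are CPM, counts scaled to a library of fixed size after TMM scaling, and differences are log2 fold changes of Sept2C111A minus control recipients with edgeR's standard error (SE). Smooth muscle markers, which define the tissue, summed to between 15774 and 23500 CPM in Sept2C111A recipients and to 16936, 18504 and 5846 CPM in control recipients 1 to 3, with control 3 far below the other 5 libraries. Controls 1 and 3 stood apart from the other 4 libraries on the first 2 principal components, which held 46.6% and 28.1% of the variance. Control 1 held the most neutrophil transcripts, and results that lean on it are therefore given with and without it. Without control 3 the 6 receptor genes described below had log2 fold changes from -2.88 (C5ar1) to -1.04 (C3ar1). In bulk tissue, fewer cells of a type and less RNA per cell cannot be told apart. The labels number the samples without saying that each came from a separate animal, so p-values measure the spread between these 6 libraries, which may be technical.

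Fc gamma receptors bind the constant part of IgG. In the mouse, the activating receptors encoded by Fcgr1, Fcgr3 and Fcgr4 signal through the shared gamma chain Fcer1g and the kinase Syk, while Fcgr2b carries an inhibitory motif that recruits phosphatases such as that encoded by Inpp5d. C1q, built of the chains C1qa, C1qb and C1qc, starts the classical complement pathway on antibody or debris and is made largely by tissue macrophages. C3 is the hub on which the complement pathways meet, and its cleavage and that of C5 release the peptides sensed by C3ar1 and C5ar1 on myeloid cells.

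The genes lie in 2 clusters and at 4 single places (mm10, GENCODE vM21). Fcgr2b (170958617 to 170976547), Fcgr4 (171018920 to 171029761) and Fcgr3 (171051174 to 171064935) are neighbours on chromosome 1, with Fcer1g 164636 bases further on. C1qb (136880129 to 136886187), C1qc (136889804 to 136893065) and C1qa (136895917 to 136898803) share 18675 bases of chromosome 4. Fcgr1 is on chromosome 3 (96282909 to 96293969), C3ar1 on chromosome 6 (122847138 to 122856161), C5ar1 on chromosome 7 (16246743 to 16259540) and C3 on chromosome 17 (57203970 to 57228136). Fcgr2b and Fcgr3 have partly identical coding sequence. Of the 50-base words of the longest Fcgr3 transcript 12.8% also occur in Fcgr2b, and 4.96% of those of Fcgr2b occur in Fcgr3. Counting any other gene, 7.44% of the Fcgr2b words were shared, whereas those of the other 8 genes occurred in no other gene. Fcgr2b and Fcgr3 had fractional counts in all 6 libraries, so their separate values are uncertain. C3ar1 had fractional counts in 5 libraries and Fcgr4 in 1, although no such word of theirs was shared, and the reason was not tested. The longest coding run that the pair has in common, 129 bases across an intron, shows what a read cannot assign (chr1:170966674-170968081 in Fcgr2b and chr1:171054167-171057792 in Fcgr3, minus strand):
shared run of Fcgr2b and Fcgr3: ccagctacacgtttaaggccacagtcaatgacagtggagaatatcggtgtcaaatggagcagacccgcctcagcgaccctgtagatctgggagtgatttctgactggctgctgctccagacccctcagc

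Upstream sequence is shown for 3 activating receptors and a C1q chain, each of which holds the motif described below. The 250 bases before the start site were read from RefSeq windows (GRCm38.p6), which matched 9 of the 10 genes, C1qa being the other. The capitals mark GAGGAA, a core of the kind bound by the myeloid ETS factor PU.1, or its reverse complement TTCCTC, searched on both strands. It occurred in the windows of 5 genes, Fcgr1, Fcgr3, Fcgr4, C1qb and C1qc, and in 23.3% of 32851 windows of the same length from all genes. The windows of Fcgr2b, C3, C3ar1 and C5ar1 had no match. Genes with and without a match were thus found among the receptors that stood lower, and C1qb and C1qc, whose groups overlapped, had one. The match began 55, 6 and 22 bases upstream of the start in Fcgr1, Fcgr3 and Fcgr4 (15 bases from a second RefSeq start of Fcgr3, not printed), each time on the strand opposite to the gene. In C1qb it began 30 bases upstream on the gene's own strand. The motif was chosen with the levels known, and a match describes letters only. The windows are chr3:96293970-96294219 (minus strand) for Fcgr1, chr1:171059404-171059653 (minus strand) for Fcgr3, chr1:171018676-171018925 (plus strand) for Fcgr4 and chr4:136886201-136886450 (minus strand) for C1qb:
Fcgr1: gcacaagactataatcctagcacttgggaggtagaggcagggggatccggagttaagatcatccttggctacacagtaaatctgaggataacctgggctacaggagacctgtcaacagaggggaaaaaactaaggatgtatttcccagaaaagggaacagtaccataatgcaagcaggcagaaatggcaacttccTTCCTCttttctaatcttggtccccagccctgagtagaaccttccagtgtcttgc
Fcgr3: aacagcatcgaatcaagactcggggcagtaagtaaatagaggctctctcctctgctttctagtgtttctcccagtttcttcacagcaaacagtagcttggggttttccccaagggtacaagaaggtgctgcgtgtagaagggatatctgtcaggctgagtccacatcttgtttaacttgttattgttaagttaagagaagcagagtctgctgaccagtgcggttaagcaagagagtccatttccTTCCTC
Fcgr4: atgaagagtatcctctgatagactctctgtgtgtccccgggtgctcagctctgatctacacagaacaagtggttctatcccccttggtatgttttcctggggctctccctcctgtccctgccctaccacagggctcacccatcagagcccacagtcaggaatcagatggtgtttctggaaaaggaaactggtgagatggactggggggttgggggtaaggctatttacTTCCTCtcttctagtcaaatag
C1qb: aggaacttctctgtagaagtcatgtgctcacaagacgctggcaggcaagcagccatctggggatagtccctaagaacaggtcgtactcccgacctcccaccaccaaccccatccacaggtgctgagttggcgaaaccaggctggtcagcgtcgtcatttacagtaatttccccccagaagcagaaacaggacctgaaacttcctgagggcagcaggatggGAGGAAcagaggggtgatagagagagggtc

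The receptors for antibody and complement stood lower in Sept2C111A recipients, whereas the transcripts of C1q overlapped and those of C3 were on average higher. Part of the contrast with C1q rested on control 1. Without it C1qa, C1qb and C1qc had log2 fold changes of -0.37, -0.57 and -0.36, and the receptors ran from -1.03 (C3ar1) to -0.48 (Fcgr3). For 5 of the 10 genes, Fcgr1, Fcgr2b, Fcgr4, C3ar1 and C5ar1, every Sept2C111A library lay below every control library, against 11.9% of all 14466 genes tested. Groups were separate in either direction for 23.1% of genes, and 49.9% of genes had a log2 fold change below 0, as 9 of the 10 did. With Fcgr3 they made 6 genes lower at an unadjusted edgeR p under 0.05, against 8.83% of all genes. No gene passed after adjustment over all genes (edgeR, 0 of 14466, 0%, smallest adjusted p 0.316), and none of the 10 did. Without adjustment 2170 genes (15.0%) had an edgeR p below 0.05. DESeq2 called C3ar1 and C5ar1 lower at adjusted p under 0.05, where it called 2.88% of all genes lower and 575 genes (3.97%) in both directions. The median log2 fold change of the 10 genes was -1.03, or -0.60 without control 1, beside 0.00 over all genes. The count of 6 was 2 in the fit that left out Sept2C111A library 2, 1 in that without Sept2C111A library 3 and 4 in that without control 1.

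**Figure D1:**
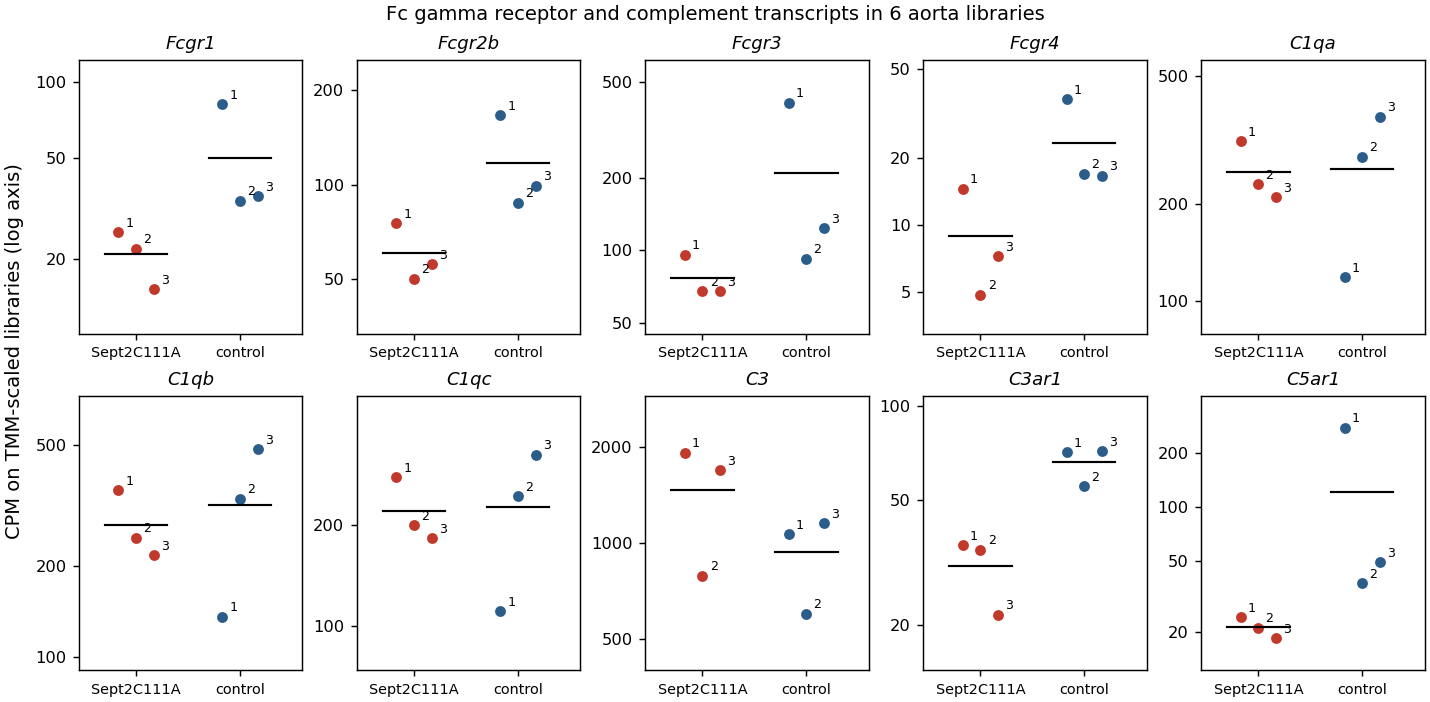
CPM (log axis, own scale per gene) of the 10 genes in the 3 Sept2C111A and 3 control libraries. Numbers are library numbers and bars are group means. Fcgr1, Fcgr2b, Fcgr4, C3ar1 and C5ar1 have no overlap between groups, while control 1 is the lowest library for the 3 C1q genes.

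Among the activating receptors, Fcgr1, the high-affinity IgG receptor, was at 25.4, 21.9 and 15.1 CPM in Sept2C111A recipients 1 to 3, against 81.7, 34.0 and 35.3 CPM in control recipients 1 to 3. The groups did not overlap, and control 1 stood far above the other controls. The log2 fold change was -1.27 (SE 0.40, adjusted p = 0.316 and unadjusted p = 0.0175 in edgeR), and -0.73 (SE 0.24) without control 1. Fcgr4, a receptor for some IgG subclasses, was at 14.5, 4.86 and 7.23 CPM in Sept2C111A recipients and at 36.4, 16.9 and 16.6 CPM in control recipients. Sept2C111A library 1 came close to controls 2 and 3 without reaching them. Its log2 fold change was -1.39 (SE 0.50 and adjusted p = 0.316 in edgeR), and -0.91 (SE 0.46) without control 1. Fcgr3, the low-affinity activating receptor, was at 95.7, 67.7 and 67.5 CPM in Sept2C111A recipients and at 410, 92.4 and 124 CPM in control recipients. Here control 2 lay below Sept2C111A library 1, so the groups overlapped. Control 1 held 3.80 times the mean of the other 2 controls, and the log2 fold change was -1.44 (SE 0.58 and adjusted p = 0.331 in edgeR) with it and -0.48 (SE 0.22) without it.

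The inhibitory receptor Fcgr2b was at 75.5, 50.3 and 56.0 CPM in Sept2C111A recipients, against 166, 87.6 and 99.2 CPM in control recipients. The groups did not overlap. The log2 fold change was -0.96 (SE 0.29, adjusted p = 0.316 and unadjusted p = 0.0148 in edgeR), and -0.62 (SE 0.20) without control 1. Activating and inhibitory transcripts thus stood lower side by side. The summed CPM of Fcgr1, Fcgr3 and Fcgr4 over that of Fcgr2b was 1.80, 1.88 and 1.604 in Sept2C111A recipients and 3.18, 1.64 and 1.77 in control recipients, as values with no test. Outside control 1 this ratio overlapped between the groups, and control 1 had the highest ratio of the 6 libraries.

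C3ar1, the receptor for C3a, had the most even difference. It was at 36.0, 34.9 and 21.6 CPM in Sept2C111A recipients and at 71.2, 55.4 and 71.6 CPM in control recipients. The highest Sept2C111A library was well below the lowest control, which held 1.54 times its CPM, and control 1 was level with control 3. The log2 fold change was -1.10 (SE 0.23, adjusted p = 0.316 and unadjusted p = 0.00256 in edgeR), and -1.03 (SE 0.26) without control 1. DESeq2 gave an adjusted p of 0.00519, which was 0.0526 without control 1. It was between 0.00226 and 0.0477 when any other single library was left out.

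C5ar1, the receptor for C5a that neutrophils and macrophages both carry, was at 24.3, 21.3 and 18.5 CPM in Sept2C111A recipients and at 278, 37.5 and 49.3 CPM in control recipients. The Sept2C111A libraries lay within 1.31 times of each other, while control 1 held 6.41 times the mean of the other 2 controls. The log2 fold change was -2.51 (SE 0.80, adjusted p = 0.316 and unadjusted p = 0.0184 in edgeR), and -1.01 (SE 0.18) without control 1. The DESeq2 adjusted p was 0.0223 with all libraries and 0.00383 without control 1. That call was lost without Sept2C111A library 1, 2 or 3, at adjusted p = 0.113, 0.0758 and 0.219.

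**Figure D2:**
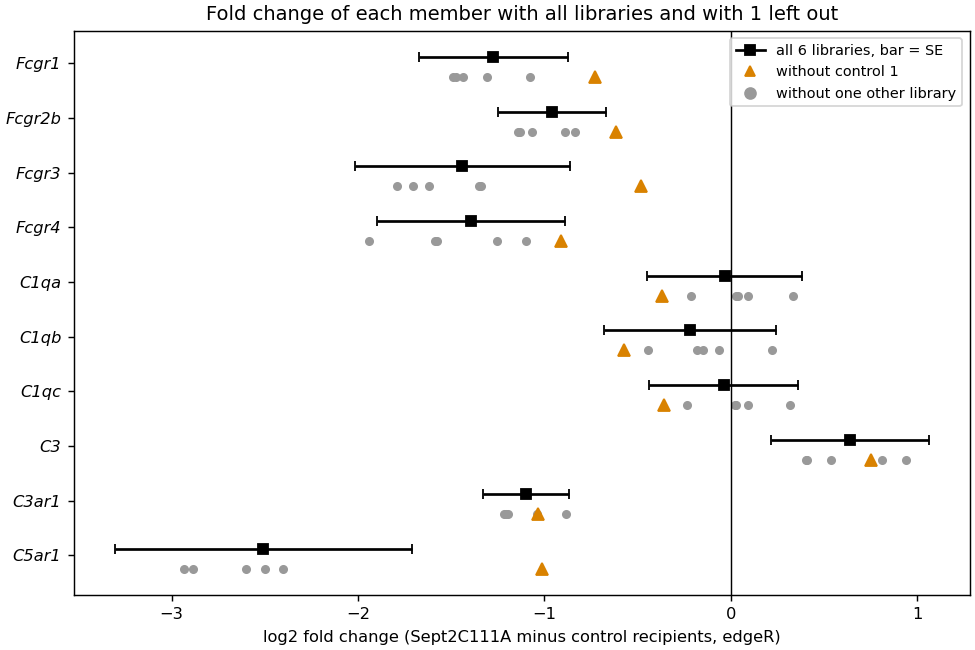
Log2 fold change (Sept2C111A minus control recipients) of each gene by edgeR with all 6 libraries (square, bar = SE), without control 1 (triangle) and without each other library (circles). The receptors stay below 0 in every fit shown, C5ar1 moves most without control 1, at -1.01 in place of -2.51, and the C1q chains lie on both sides of 0.

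The C1q chains showed no group difference that the spread allowed to be seen. C1qa was at 314, 231 and 211 CPM in Sept2C111A recipients and at 119, 281 and 373 CPM in control recipients, a log2 fold change of -0.03 (SE 0.42 and adjusted p = 0.975 in edgeR). C1qb was at 355, 247 and 216 CPM in Sept2C111A recipients, against 136, 333 and 485 CPM in control recipients (log2 fold change -0.22, SE 0.46). C1qc was at 279, 201 and 183 CPM in Sept2C111A recipients and at 110, 245 and 326 CPM in control recipients (log2 fold change -0.04, SE 0.40). For each chain all 3 Sept2C111A libraries lay between control 1, the lowest of the 6, and control 3, the highest. Without control 1 the log2 fold changes of C1qa, C1qb and C1qc were -0.37, -0.57 and -0.36, and without control 3 they were 0.33, 0.22 and 0.32. The SEs leave room for a difference of some size in either direction.

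The 3 chains kept near-constant proportions from library to library. C1qc over C1qa ran from 0.869 to 0.890 in Sept2C111A recipients and from 0.872 to 0.929 in control recipients. C1qb over C1qa was 1.13, 1.07 and 1.03 in Sept2C111A recipients and 1.14, 1.19 and 1.298 in control recipients, so on this ratio the groups did not overlap. Both ratios are descriptions with no test.

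C3 was the single gene of the 10 with a positive log2 fold change. It was at 1918, 790 and 1691 CPM in Sept2C111A recipients and at 1067, 602 and 1154 CPM in control recipients. Sept2C111A library 2 lay below controls 1 and 3, and the log2 fold change was 0.64 (SE 0.42 and adjusted p = 0.467 in edgeR). It was 0.41 without Sept2C111A library 1, 0.40 without control 2 and 0.94 without Sept2C111A library 2. Hepatocyte markers, from the main source of plasma C3, summed to between 8.25 and 11.5 CPM in Sept2C111A recipients and to between 5.14 and 12.95 CPM in control recipients. Of these 6 markers only Ahsg was abundant enough to be tested. Adventitial fibroblast and adipocyte markers, from cells that also make C3, summed to between 7905 and 12732 CPM and between 1421 and 2965 CPM in Sept2C111A recipients. In control recipients they summed to between 4665 and 5965 CPM and between 654 and 2263 CPM. Their part in the C3 values was not tested.

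Per kilobase of exon, C1q and C3 stood above the receptors in every library except control 1. C1qb averaged 251 ± 67.1 CPM per kilobase in Sept2C111A recipients and 292 ± 161 in control recipients (SD, n = 3 each). C3 averaged 286 ± 116 CPM per kilobase in Sept2C111A recipients and 183 ± 57.8 in control recipients. Of the receptors Fcgr3 had the highest mean, at 47.2 ± 9.96 CPM per kilobase in Sept2C111A recipients and 128 ± 108 in control recipients. Fcgr2b was at 15.9 ± 3.47 CPM per kilobase in Sept2C111A recipients, next after Fcgr3 there, and at 30.9 ± 11.1 in control recipients, where the mean of C5ar1, raised by control 1, was above it at 47.3 ± 52.8. C5ar1, Fcgr1, C3ar1 and Fcgr4 lay between 7.06 and 8.32 CPM per kilobase on average in Sept2C111A recipients, and these neighbours did not differ beyond their spread. In control recipients the same 4 genes lay between 15.3 and 47.3 CPM per kilobase. In control 1, Fcgr3 at 252 CPM per kilobase exceeded each C1q chain and C3.

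Control 1 separated the receptors from C1q. Relative to the mean of the 6 libraries on the log2 scale, it was at 1.41 for Fcgr1, 1.86 for Fcgr3 and 2.75 for C5ar1, the highest library for each, and at -1.01 for C1qa, the lowest. The CPM of Fcgr3 over that of C1qa was 0.305, 0.293 and 0.320 in Sept2C111A recipients and 3.45, 0.329 and 0.331 in control recipients. In 5 libraries this ratio thus lay within a narrow band, with control 1 far above it. Within the band controls 2 and 3 lay just above all 3 Sept2C111A libraries, so the groups did not overlap, as values with no test. The root mean square difference of centred log2 profiles over the 6 libraries, a measure of likeness where 0 is identical, was 0.03 between C1qa and C1qc and 0.11 between C1qa and C1qb. It was 0.27 between Fcgr1 and Fcgr2b, 0.30 between Fcgr1 and Fcgr3, 0.47 between Fcgr3 and C5ar1, and 1.71 between C1qa and C5ar1.

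**Figure D3:**
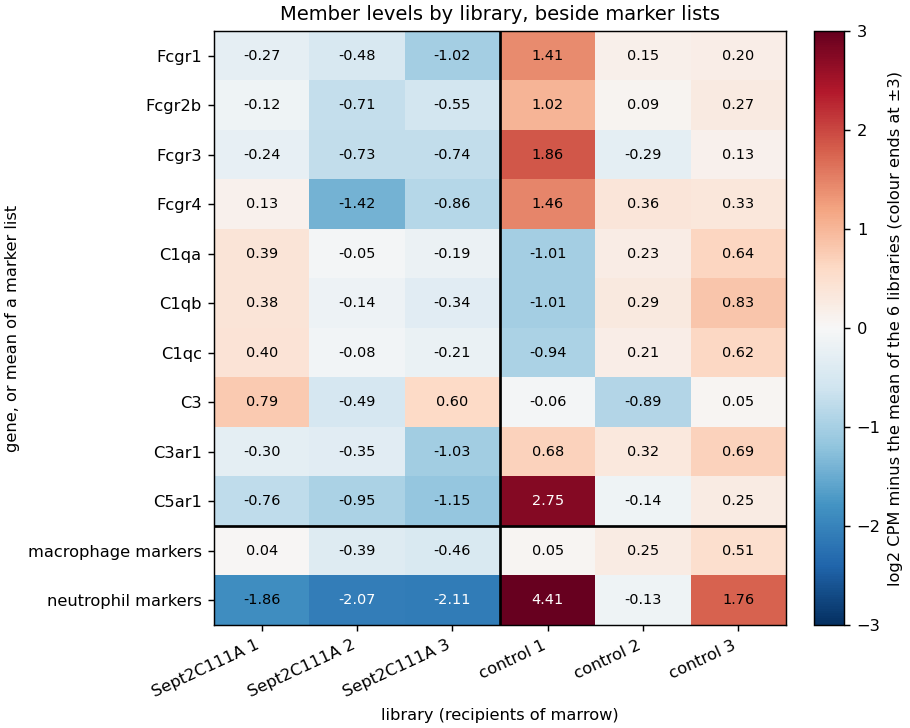
Log2 CPM minus the mean of the 6 libraries for each gene, and the mean of the same over the macrophage and neutrophil marker lists, by library (Sept2C111A left, control right). Control 1 is at 2.75 for C5ar1, at -1.01 for C1qa and at 4.41 for neutrophil markers, beyond the end of the colour scale.

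Markers of neutrophils and macrophages, which carry these receptors, were mostly lower too, and those of mast cells were mostly higher. Of 10 neutrophil markers 7 were tested, each with a negative log2 fold change and with groups that did not overlap (11.9% of all genes were lower in this way), and their median was -5.36, or -2.64 without control 1. They summed to between 16.7 and 28.8 CPM in Sept2C111A recipients and to 2918, 89.4 and 333 CPM in control recipients 1 to 3. S100a8, a calprotectin subunit, was at 3.05, 0.995 and 1.45 CPM in Sept2C111A recipients and at 650, 12.8 and 105 CPM in control recipients, and Ly6g, a defining neutrophil marker, had 0 counts in every Sept2C111A library and in control 2. The median of 10 macrophage markers was -0.48 on the log2 scale, 8 of them below 0, and it was -0.77 without Sept2C111A library 1 and -0.24 without control 3. They summed to between 1730 and 2635 CPM in Sept2C111A recipients and to between 2437 and 4121 CPM in control recipients. Unadjusted edgeR p was under 0.05 for 4 macrophage markers, all lower, beside 8.83% of all genes. That count was 3, 1 and 0 without Sept2C111A library 1, 2 and 3. Groups were separate for 2 macrophage markers, both lower, beside 11.9% of all genes, and DESeq2 called 0. Natural killer and B cell markers, whose cells also carry Fc gamma receptors, summed to at most 4.52 and 34.3 CPM in any library. Of 6 B cell markers tested 5 were below 0, with a median of -1.68, or -0.96 without control 1. Unadjusted edgeR p was under 0.05 for 3, all lower, beside 8.83% of all genes, and for 0 without Sept2C111A library 2 or 3 or control 1. The 3 natural killer markers tested were below 0, with a median of -0.83, and 0 had such a p. Mast cell markers summed to between 33.0 and 61.8 CPM in Sept2C111A recipients and to between 32.8 and 39.6 CPM in control recipients. Of these 5 markers 4 were above 0, with a median of 0.76 on the log2 scale, and 2 had an unadjusted edgeR p under 0.05, both higher, beside 6.17% of all genes. That count of 2 was 0 without Sept2C111A library 1 or 3 or control 2 or 3, and 4 without Sept2C111A library 2 or control 1. Erythroid markers, which follow blood content, summed to between 202 and 708 CPM in Sept2C111A recipients and to 1683, 70.6 and 1107 CPM in control recipients, and endothelial markers to between 576 and 1293 CPM in Sept2C111A recipients and between 628 and 1159 CPM in control recipients. The part of these cells in the receptor values was not tested.

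Set against macrophage markers, the Fc gamma receptors of controls 2 and 3 were near those of Sept2C111A recipients. The geometric mean of the 10 macrophage markers was 141, 104 and 99.8 CPM in Sept2C111A recipients and 142, 163 and 195 CPM in control recipients. Fcgr1 over this mean was 0.180, 0.210 and 0.151 in Sept2C111A recipients and 0.576, 0.209 and 0.181 in control recipients. Fcgr2b over it was 0.535, 0.482 and 0.561 in Sept2C111A recipients and 1.17, 0.539 and 0.509 in control recipients. For these genes, and likewise for Fcgr3 and Fcgr4, the groups overlapped on this scale. They did not overlap for C3ar1, at 0.255, 0.335 and 0.217 in Sept2C111A recipients and 0.502, 0.341 and 0.367 in control recipients. C5ar1 was at 0.172, 0.204 and 0.186 in Sept2C111A recipients and at 1.96, 0.231 and 0.252 in control recipients, again without overlap. C1qa, C1qc and C3 lay above the controls on this scale. C1qa was at 2.23, 2.22 and 2.11 in Sept2C111A recipients and at 0.839, 1.73 and 1.91 in control recipients. The divisor itself was lower in every Sept2C111A library than in any control, by little between Sept2C111A library 1 and control 1. A lower divisor raises each ratio, and in CPM the groups overlapped for C1qa, C1qc and C3. The share of all genes with separate groups on this scale was not computed. These ratios carry no test, and 1 of the 10 markers, Cd14, was itself at 37.1, 34.3 and 30.4 CPM in Sept2C111A recipients and at 477, 34.4 and 53.9 CPM in control recipients.

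**Figure D4:**
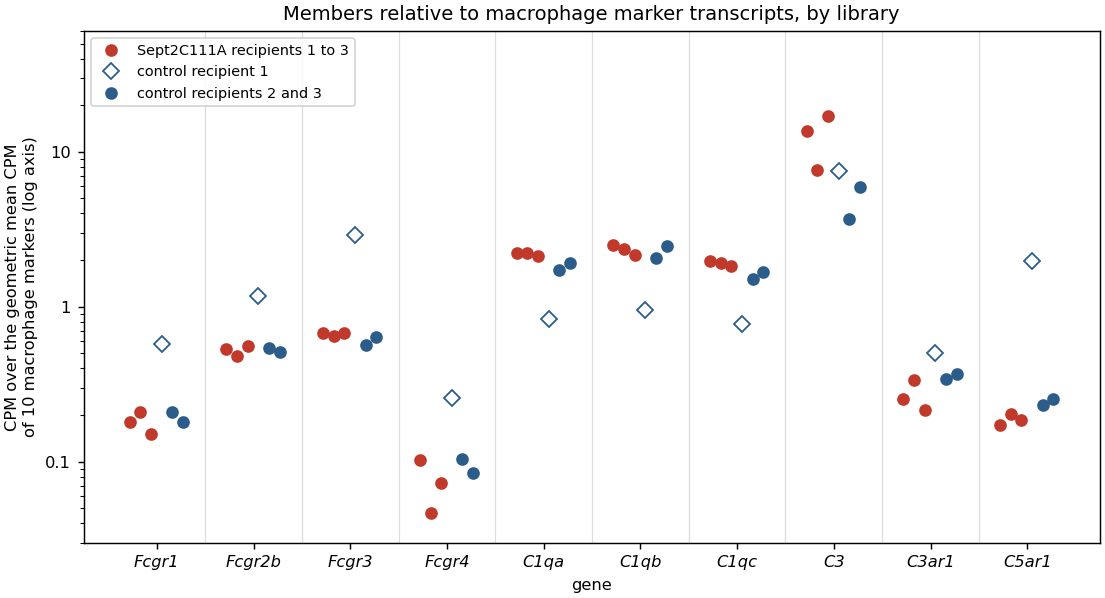
CPM of each gene over the geometric mean CPM of 10 macrophage markers (log axis), by library. Outside control 1 (open diamond) the Fc gamma receptors lie at similar values in both groups, while C1qa, C1qc and C3 lie higher in the Sept2C111A libraries. The divisor is lower in every Sept2C111A library than in any control.

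Much of the wider Fc receptor pathway stood lower as well. Of 22 listed receptors and signalling genes 21 were tested, and 17 had a log2 fold change below 0 and 4 above, with a median of -1.04. Unadjusted edgeR p was under 0.05 for 13, all lower, beside 8.83% of all genes. That count of 13 was 9 without Sept2C111A library 2 or 3 and 12 without control 1. DESeq2 called 9, all lower, beside 2.88% of all genes, while 0 passed edgeR's adjusted test. Fcer1g, the gamma chain of the activating receptors, was at 54.96, 42.4 and 33.2 CPM in Sept2C111A recipients and at 111, 62.7 and 95.5 CPM in control recipients. The groups did not overlap, and the log2 fold change of -1.04 (SE 0.27 and adjusted p = 0.316 in edgeR) was -0.85 without control 1. Syk, the kinase recruited by the gamma chain, averaged 59.6 ± 14.3 CPM in Sept2C111A recipients and 166 ± 119 CPM in control recipients (SD, n = 3 each). Its log2 fold change was -1.48 (SE 0.50), or -0.70 without control 1.

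The phosphatase SHIP1, encoded by Inpp5d and used by the inhibitory receptor, had the smallest p of this list among genes with a mean count of at least 50. It was at 38.5, 29.4 and 28.6 CPM in Sept2C111A recipients and at 168, 60.4 and 90.8 CPM in control recipients. The groups did not overlap, and the log2 fold change was -1.72 (SE 0.38, edgeR unadjusted p = 0.00355, DESeq2 adjusted p = 0.00325), or -1.22 without control 1. The DESeq2 call was lost without Sept2C111A library 3, at adjusted p = 0.0810. Lcp2, an adaptor downstream of Syk, was at -1.89 on the log2 scale (SE 0.46), or -1.52 without control 1. Vav1, a Rac exchange factor, was at -1.80 (SE 0.45), or -1.28 without control 1. All of these genes are used by many blood cells beside those that carry Fc gamma receptors.

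Most genes listed as other complement receptors were also lower. The list was drawn broadly and holds Calr and Lrp1, at -0.38 and -0.18 on the log2 scale with overlapping groups. All 9 were tested, 8 were below 0, and the median log2 fold change was -1.001. Unadjusted edgeR p was under 0.05 for 5, all lower, beside 8.83% of all genes, and for 3, 2 and 2 without Sept2C111A library 1, 2 and 3. DESeq2 called 3, all lower, beside 2.88% of all genes. Itgam and Itgb2, the chains of complement receptor 3, were at 50.1 ± 2.75 and 45.0 ± 10.3 CPM in Sept2C111A recipients and at 396 ± 510 and 190 ± 150 CPM in control recipients (SD, n = 3 each). Control 1 held 985 CPM of Itgam, against 78.1 and 126 CPM in controls 2 and 3, and the log2 fold change of -2.98 (SE 0.98) was -1.02 without it, while that of Itgb2, -2.08 (SE 0.58), was -1.21. C5ar2, the second C5a receptor, was at 1.05, 0.608 and 0.556 CPM in Sept2C111A recipients and at 57.7, 2.26 and 3.07 CPM in control recipients. Its groups did not overlap, and its log2 fold change was -4.81 (SE 1.45), or -1.83 without control 1.

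Most tested genes for soluble complement components had log2 fold changes above 0, few of them at an unadjusted p under 0.05. In the classical and lectin list 9 of 16 genes were tested, and 7 were above 0 and 2 below, where 50.1% of all genes were above 0. The median was 0.39, or 0.22 without control 1. Unadjusted edgeR p was under 0.05 for 1 of the 9, which was higher, beside 6.17% of all genes. C1ra, a protease of the C1 complex, was at 262, 194 and 310 CPM in Sept2C111A recipients and at 131, 144 and 173 CPM in control recipients. The groups did not overlap (log2 fold change 0.77, SE 0.22, adjusted p = 0.316 by edgeR, DESeq2 adjusted p = 0.0407). The DESeq2 call held in 2 of 6 fits with a library left out, and was lost without Sept2C111A library 1 or 3 (adjusted p = 0.263 and 0.344) and without control 1 or 2 (0.152 and 0.0818). Groups overlapped for the soluble collectin Colec11, at 1.18 on the log2 scale (SE 0.60), and for the membrane collectin Colec12, at 0.34 (SE 0.22). Without control 1 Colec12 was at 0.15, and Colec11 was at 0.65 without Sept2C111A library 2 and at 1.81 without control 2.

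In the alternative and terminal list 6 of the 9 genes with a row were tested, 5 above 0, with a median of 0.81. Leaving out Sept2C111A library 1 gave a median of 0.03, and leaving out library 3 of that group gave 0.45. C7, a subunit of the membrane attack complex, was at 650, 135 and 622 CPM in Sept2C111A recipients and at 164, 141 and 60.9 CPM in control recipients. Sept2C111A library 2 lay below controls 1 and 2 (log2 fold change 1.94, SE 0.66, adjusted p = 0.316 by edgeR, DESeq2 adjusted p = 0.0492). The DESeq2 call held in 1 of 6 fits with a library left out, that without Sept2C111A library 2, with adjusted p of 0.337 without Sept2C111A library 1, 0.382 without library 3 of that group, and 0.0640, 0.0511 and 0.167 without controls 1, 2 and 3. C6, another subunit, rested on Sept2C111A library 1, at 12.2 CPM there and at most 2.45 CPM elsewhere. Cfp, properdin, which myeloid cells make and which stabilises the alternative convertase, was at 69.0 ± 21.2 CPM in Sept2C111A recipients and 121 ± 36.0 CPM in control recipients, with overlapping groups (log2 fold change -0.81, SE 0.31, adjusted p = 0.323 by edgeR).

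Among the regulators 11 of 14 genes were tested, 9 above 0 and 2 below, with a median of 0.35. Unadjusted edgeR p was under 0.05 for 2, both higher, where 6.17% of all genes were, and for 1 without Sept2C111A library 1 or 3. DESeq2 called 1 of them higher, beside 1.09% of all genes, and 3 had separate groups, higher in Sept2C111A recipients, beside 11.2% of all genes. Serping1, the C1 inhibitor, was at 1161, 916 and 1160 CPM in Sept2C111A recipients and at 559, 583 and 732 CPM in control recipients. No libraries overlapped (log2 fold change 0.79, SE 0.22, adjusted p = 0.316 by edgeR, DESeq2 adjusted p = 0.0042). The DESeq2 call was lost without Sept2C111A library 1 or 3, at adjusted p = 0.0918 and 0.126. Cd59a, which blocks the membrane attack complex, was at 55.7 ± 4.52 CPM in Sept2C111A recipients and 40.8 ± 10.2 CPM in control recipients (log2 fold change 0.45, or 0.26 without control 3). Adventitial fibroblast markers, from cells that make several of these proteins, were above 0 for 8 of 8 genes, with a median of 0.85 on the log2 scale, and their part in these values was not tested. Ptx3, a soluble pentraxin that binds C1q, was at 10.9, 14.8 and 20.9 CPM in Sept2C111A recipients and at 147, 18.5 and 60.1 CPM in control recipients, with overlapping groups and a log2 fold change of -2.28 that was -1.33 without control 1.

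**Figure D5:**
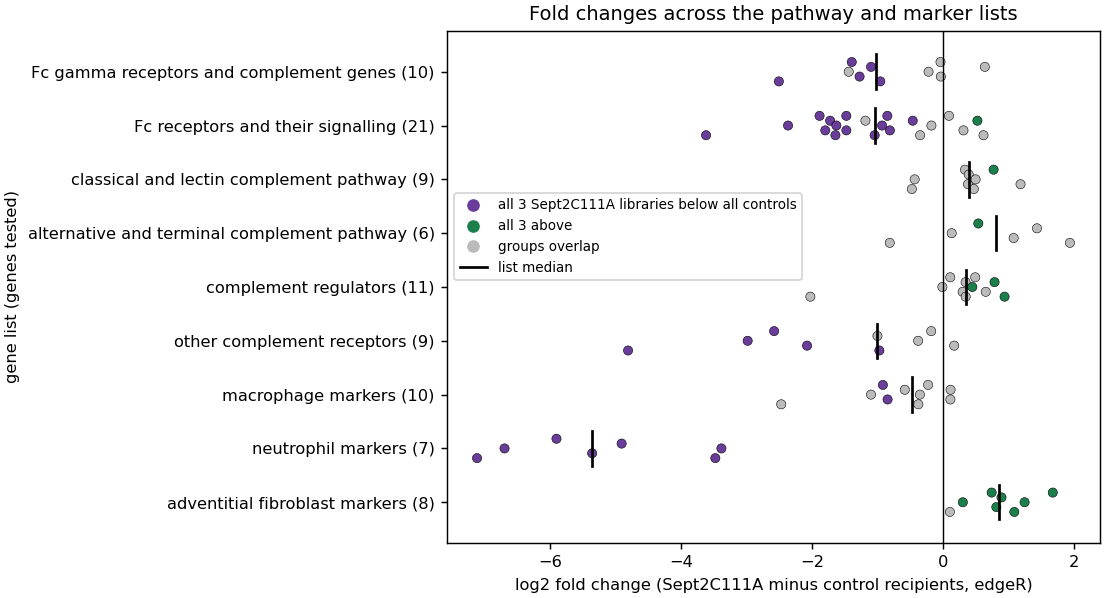
Log2 fold change (Sept2C111A minus control recipients) of each tested gene in the pathway lists and in 3 marker lists. Colour shows whether the groups of libraries were separate, and vertical bars are list medians, at -1.04 for Fc receptors and their signalling, -1.001 for other complement receptors and 0.35 for complement regulators.

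The genes most like C1qa, Fcgr1 and C3 over the 6 libraries were sought among 12744 genes with a mean count of at least 50, by the same root mean square difference. Tspyl3 was nearest to C1qa at 0.06, followed by Pld4 and Rac3 at 0.10 each, where the median gene was at 0.60. Pld4, a phospholipase D family member of myeloid cells, was at 58.3, 42.9 and 37.7 CPM in Sept2C111A recipients and at 22.2, 61.5 and 74.3 CPM in control recipients, lowest in control 1 as C1qa was. Arhgap30, Plcxd2 and Cers6 were nearest to Fcgr1, each at 0.16, with the median gene at 0.81. Arhgap30 was at 43.6, 31.9 and 28.3 CPM in Sept2C111A recipients and at 152, 48.8 and 62.7 CPM in control recipients. Rgs17, AU021092 and Gbp5 were nearest to C3, at 0.15, 0.16 and 0.18, with the median gene at 0.64. There are 6 libraries, and all genes of a library share its depth and its cell content, which differed between libraries. Such likeness is therefore a description.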

How the data were processed

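Messenger RNA captured from whole aortas on oligo(dT) beads was sequenced in 6 libraries, per the labels' protocols. The authors deposited 1 table per library, which holds expected counts of each gene without normalisation. Bowtie2, RSEM 1.3.1, DESeq2 1.4.5 and the build mm10 are named in the submitters' processing notes. No source used here gives the annotation, read filters or strand setting, so reads of overlapping antisense genes cannot be told apart. RSEM divides reads that match several genes, which bears on Fcgr2b and Fcgr3. Some libraries also had fractional counts of C3ar1 and Fcgr4. A heading inside 1 Sept2C111A file gives a sample number that differs from its GEO record, and the GEO record was followed. Of the gene names 25 were stored as dates, none of them in a list used here.

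Expected counts were rounded, and edgeR 4.0.16 in R 4.3.3 gave the main test (filterByExpr with a minimum count of 10, 14466 genes, TMM scaling, two-sided quasi-likelihood F test on group, Benjamini-Hochberg adjustment over all genes, calls at 0.05). SEs were derived from the fold change and F value. DESeq2 1.42.0 on the same genes and limma 3.58.1 (voom with quality weights) were alternatives, as were other scalings and filters, leaving out each library and a block on sample number. Log2 profiles used a prior count of 2. All tests were tried on simulated data. Chi-square per degree of freedom between replicates was 43.8 to 208, well above sampling noise, so no library was counted as a duplicate. The 10 genes and the 17 further lists were chosen with earlier results of these data known. Named genes are the 10, Fcer1g, Syk, Inpp5d and Itgam, the 3 of smallest edgeR p with a mean count of at least 50 in each pathway list, up to 2 abundant genes per marker list, and the 3 nearest in pattern to C1qa, Fcgr1 and C3. One gene under this rule is not reported here. Other genes named (Cd14, Ly6g, Calr, Lrp1, and those of the other observations) were chosen after their values were seen. Of 149 list entries 146 had a row, C8b, Apcs and Ighm being the others. Coordinates and exon lengths come from GENCODE vM21.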

Additional observations from a re-analysis of the deposited data

How the results depend on the processing

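In the main fit the pathway lists held 21, 9, 9, 6, 11 and 1 tested genes, in the order given above. No gene passed edgeR's adjusted test under any setting tried, whereas DESeq2 called 575 of all genes (3.97%), 2 of the 10 genes and 16 of the pathway lists. With 1 library left out edgeR called 0 in each of these, and its number at unadjusted p under 0.05 ran from 879 to 3017 for all genes and from 1 to 6 for those of the 10 genes that were lower. With Sept2C111A library 1, 2 or 3 left out DESeq2 called 240, 660 and 133 genes in all and 8, 8 and 1 of the pathway lists, and with control 1, 2 or 3 left out 332, 1769 and 323 genes and 6, 23 and 12 of the pathway lists. It called from 1 to 5 of the 10 genes, and its number at unadjusted p under 0.05 ran from 1411 to 3630 for all genes. With limma-voom 3 of the 10 genes were lower at unadjusted p under 0.05, in place of 6, where 2022 of 14466 genes had such a p in either direction. The cause of these differences was not tested, except that fits without a library hold fewer samples. Of 28 genes followed under the alternatives, 25 kept their direction throughout. The exceptions were C1qa, C1qb and C1qc. With limma-voom their log2 fold changes were 0.18, 0.051 and 0.17, and with the replicate block those of C1qa and C1qc were 0.079 and 0.058. With 1 library left out they ran from -0.37 to 0.33, -0.57 to 0.22 and -0.36 to 0.32 by edgeR, and from -0.38 to 0.33, -0.59 to 0.21 and -0.37 to 0.31 by DESeq2. By DESeq2 without Sept2C111A library 2, without Sept2C111A library 3 and without control 2, C1qa was at 0.013, 0.077 and 0.027 and C1qc at 0.015, 0.077 and 0.014. Sample numbers are shared between the groups, and same-numbered libraries had an r of deviations over genes of 0.01, 0.15 and -0.17. For differently numbered libraries r ran from -0.214 to 0.161, so these values cannot show whether a shared number marks a batch. The block left 0 calls and gave 1489 genes at unadjusted p under 0.05 in place of 2170. With it the SE was smaller for Fcgr1, Fcgr2b, Fcgr3, Fcgr4, C3 and C5ar1, and larger for C1qa, C1qb, C1qc and C3ar1. At 88 to 36514 counts per gene and library for the 10 genes, the spread between libraries, more than counting error, limits precision.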

Other observations

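A few genes of the same pathways stood apart from the patterns above. Fcgrt, the neonatal Fc receptor that recycles IgG, was higher in every Sept2C111A library than in any control, at 257 ± 15.4 CPM in Sept2C111A recipients and 178 ± 57.5 CPM in control recipients (SD, n = 3 each), at a log2 fold change of 0.53 (SE 0.26 and adjusted p = 0.372 in edgeR). It was the single gene with separate groups in that direction of 21 tested in its list, beside 11.2% of all genes. Control 1 was the lowest library, at 113 CPM, against 200 and 222 CPM in controls 2 and 3. Cfd, the adipocyte protease that activates factor B, was at 990 ± 727 CPM in Sept2C111A recipients and 468 ± 201 CPM in control recipients, with overlapping groups. Cd93, once described as a C1q receptor and abundant in endothelium, was at 120 ± 22.1 CPM in Sept2C111A recipients and 235 ± 111 CPM in control recipients, without overlap (log2 fold change -0.97, SE 0.35).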
